A study of Rattus norvegicus with 60 samples.

Results

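Calcium-calmodulin kinases, calcineurin and protein kinase C are followed here across the rat hippocampus through 9 genes: the CaMKII subunits Camk2a, Camk2b, Camk2d and Camk2g, the nuclear kinase Camk4, the calcineurin catalytic subunits Ppp3ca and Ppp3cb, and the protein kinase C isoforms Prkca and Prkcb. Members were the probes whose deposited symbol is one of these names. That matched 8 genes, and the probe of Prkcb was found under its older symbol Prkcb1. Each gene had 1 probe, so 9 of 22523 probes were members, and 9 of 16226 named genes.

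The rats were F344BN F1 hybrids, and hippocampal RNA was hybridized to 60 Illumina bead arrays. It came either from the whole hippocampus or from 1 of its subregions: CA1, CA3 or the dentate gyrus, DG below. CA1, CA3 and DG each had 4 Aged Impaired, 4 Aged Intact and 4 Adult arrays, and whole hippocampus had 9 Aged Impaired, 9 Aged Intact and 6 Adult arrays. Aged rats were 24 months old and adult rats 12 months old, and no group carried a transgene or a treatment in the labels. The labels give neither the sex of the rats nor the measure on which aged rats were called impaired or intact, and nothing says that samples came from separate rats, so each p-value speaks only of the spread among these samples, which may be technical.

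CaMKII is a multi-subunit kinase of the postsynaptic density that calcium-bound calmodulin switches on, and its activation by NMDA receptor calcium entry is a textbook requirement for long-term potentiation. CaMKIV carries calcium signals into the nucleus, where it phosphorylates CREB. Calcineurin is the calmodulin-dependent phosphatase that opposes these kinases and takes part in long-term depression, and the conventional protein kinase C isoforms need both calcium and diacylglycerol. The balance between these kinases and calcineurin is often discussed in work on calcium handling in the ageing hippocampus.

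Levels below are background-corrected, quantile-normalized log2 intensities, so 1 unit is a doubling. Different probes have different brightness, and levels were compared between samples of 1 probe only. A probe counted as detected on an array at a detection p under 0.01, and a difference was called at a Benjamini-Hochberg adjusted p under 0.05 over all probes tested, from limma. The number of arrays limits the precision. The tested subregion markers had their highest mean level in their own subregion. All 5 tested CA1 markers were called higher in CA1 than in CA3. All 3 tested CA3 markers were called higher in CA3 than in DG, and all 4 tested DG markers lower in CA3 than in DG. Other markers of the CA3 and DG lists were detected on too few arrays to be tested, and not all were highest in their own subregion. CA1, CA3 and DG were each on a slide of their own, so subregion and slide cannot be told apart. By the array positions in the sample titles, each of these 3 slides was filled in blocks by group, so position and group cannot be told apart there either.

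Some arrays stood apart. On CA1 Adult replicate 4, 22.22% of probes were detected, against 40.64% to 47.21% on the other 59 arrays. Aged Intact replicates 2 and 7 of whole hippocampus shared a profile: 1979 probes were higher on both, and 1927 lower on both, than on any of the other 22 whole-hippocampus arrays. Among all 276 pairs of whole-hippocampus arrays, the next pair had 781 such probes in all. These 2 arrays were on different slides, and 42.19% and 42.05% of their probes were detected. Results that rest on these arrays are given with and without them.

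**Figure D1:**
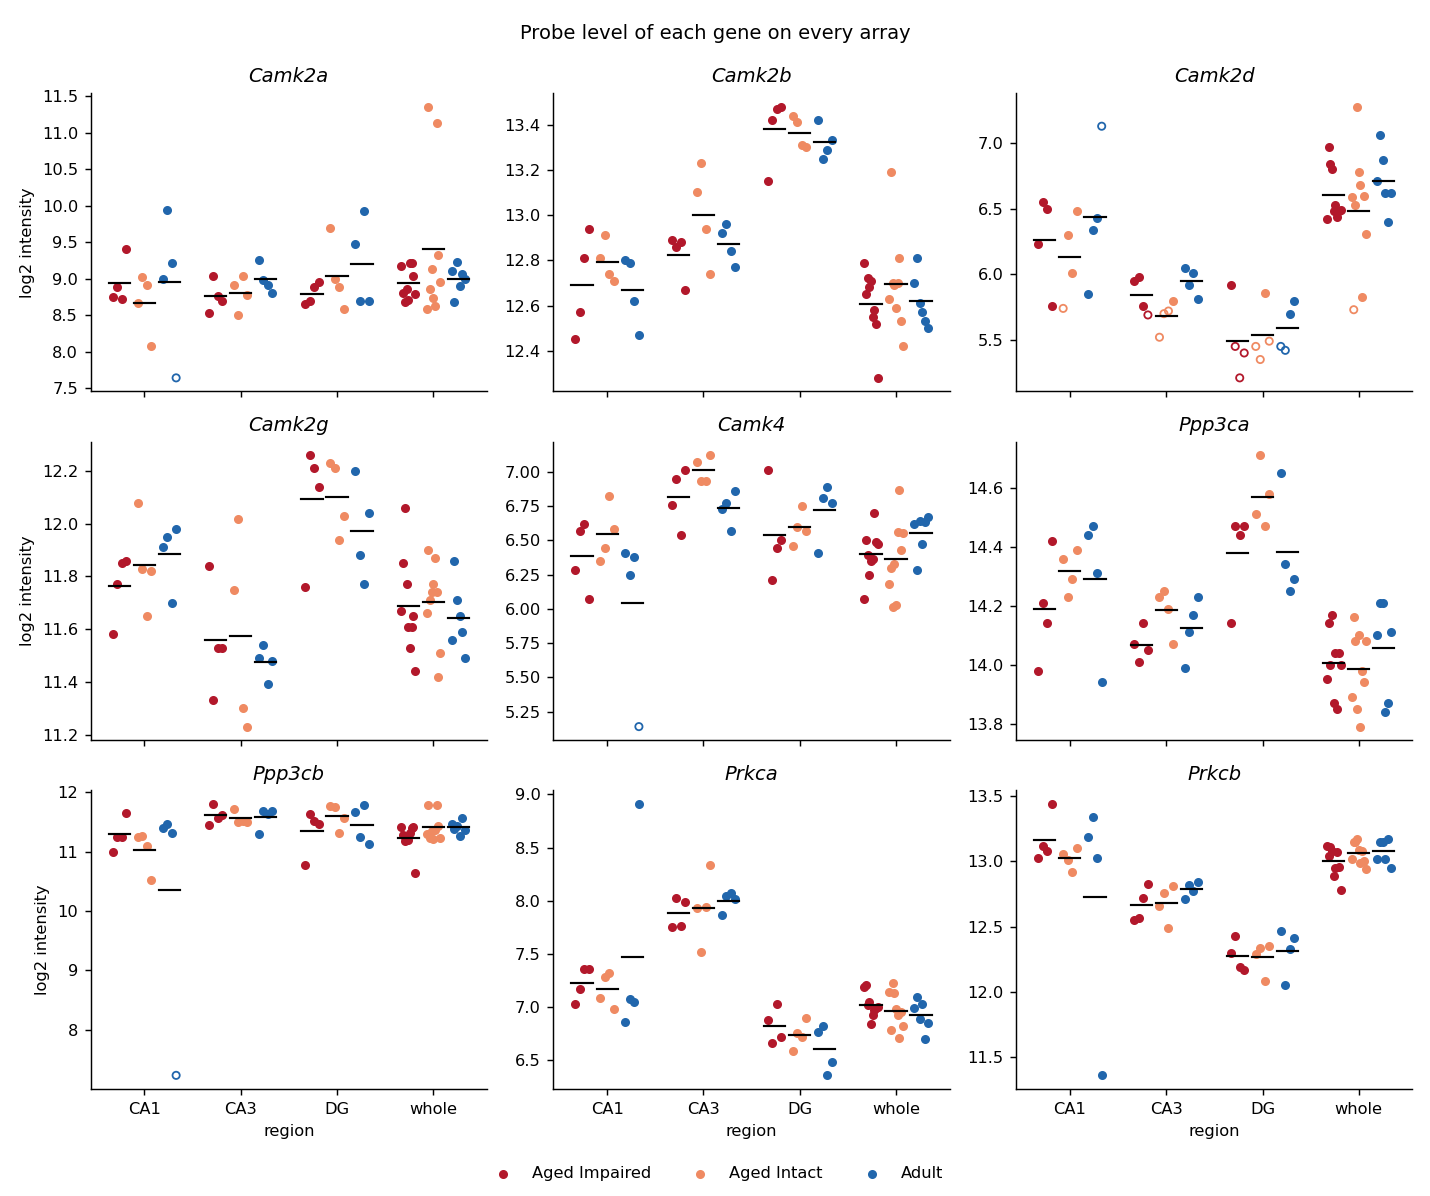
Log2 intensity (y axis) of each gene's probe on every array by region (x axis), for Aged Impaired, Aged Intact and Adult arrays from left to right. Open circles are arrays on which the probe was not detected, and black bars are group means. Groups overlap within regions, except Aged Intact and Adult CA3 arrays for Camk2d and Camk4. How many of all probes separated in this way was not counted. Prkca, Prkcb and Camk2b differ in level between regions, and 1 CA1 Adult array lies apart in several panels.

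Between subregions, Prkca was highest in CA3, Prkcb and Camk2d in CA1, and Camk2b in DG. Fitting the 36 subregion arrays together, limma's F test called 7 of the 9 genes, and 56.9% of all 10927 probes tested, so most probes differed between the 3 subregions. At an unadjusted p under 0.05 it was 8 of the 9 genes, and 62.7% of all probes. Camk2a (adjusted p = 0.656) and Ppp3cb (adjusted p = 0.0744) were not called. In whole tissue pieces, fewer cells of a type and less RNA per cell cannot be told apart.

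Prkca (probe ILMN_1372407) encodes the alpha isoform of protein kinase C. In CA1 it ran from 6.86 to 8.91 with a median of 7.13, in CA3 from 7.52 to 8.34 with a median of 7.97, and in DG from 6.36 to 7.03 with a median of 6.74 (n = 12 arrays each). Every CA3 array lay above every DG array, and the share of all probes separated in this way between subregions was not counted. The difference of CA3 minus DG was 1.21 ± 0.15 (SE), a fold of 2.32 (limma adjusted p = 4.2e-08). CA1 minus CA3 was -0.65 ± 0.15 (limma adjusted p = 0.00095), and -0.81 without CA1 Adult replicate 4, the array at 8.91. CA1 minus DG was 0.57 ± 0.15 (limma adjusted p = 0.00216), and 0.41 without that array.

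Prkcb (probe ILMN_1351123), the beta isoform, had another order. It ran from 11.36 to 13.44 in CA1, with a median of 13.07, from 12.49 to 12.84 in CA3, with a median of 12.74, and from 12.05 to 12.47 in DG, with a median of 12.31. All CA3 arrays were above all DG arrays, again without a counted share of all probes. CA3 minus DG was 0.43 ± 0.13 (limma adjusted p = 0.0104) and CA1 minus DG was 0.69 ± 0.13 (limma adjusted p = 9.39e-05). CA1 minus CA3 was 0.26 ± 0.13 and was not called (limma adjusted p = 0.138). Without CA1 Adult replicate 4, which had 11.36, it was 0.41 and was called (limma adjusted p = 1.98e-06).

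Of the CaMKII subunits, Camk2b (probe ILMN_1367246), the beta subunit that binds actin, was brightest in DG. Its levels ran from 12.45 to 12.94 in CA1, from 12.67 to 13.23 in CA3 and from 13.15 to 13.48 in DG. No CA1 array reached the DG range, and the share of all probes for which this held was not counted. CA1 minus DG was -0.64 ± 0.07 (limma adjusted p = 2.46e-09) and CA3 minus DG was -0.46 ± 0.07 (limma adjusted p = 1.33e-06). CA1 minus CA3 was smaller, at -0.18 ± 0.07 (limma adjusted p = 0.0383), and lost its call on leaving out 1 array in 11 of 36 cases.

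Camk2g (probe ILMN_1364240), the gamma subunit, was also highest in DG, with 11.83 in CA1, 11.54 in CA3 and 12.06 in DG. CA3 minus DG was -0.52 ± 0.09 (limma adjusted p = 1.02e-05), CA1 minus CA3 was 0.3 ± 0.09 (limma adjusted p = 0.00907) and CA1 minus DG was -0.22 ± 0.09 (limma adjusted p = 0.0341). The last of these lost its call when 1 array was left out in 8 of 36 cases.

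Camk2d (probe ILMN_1373670), the delta subunit, ran the other way and was close to the detection limit. It averaged 6.28 in CA1, 5.83 in CA3 and 5.54 in DG, and it was detected on 10 of 12 CA1 arrays, 8 of 12 CA3 arrays and 4 of 12 DG arrays. CA1 minus DG was 0.73 ± 0.12 (limma adjusted p = 4.85e-06) and CA1 minus CA3 was 0.45 ± 0.12 (limma adjusted p = 0.00335). CA3 minus DG was 0.28 ± 0.12 and was not called (limma adjusted p = 0.051). It was called when 1 array was left out in 10 of 36 cases, CA1 Adult replicate 4 among them (limma adjusted p = 0.0126). So Camk2b and Camk2g had their highest mean in DG, where Camk2d had its lowest.

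Camk2a (probe ILMN_1359245), the alpha subunit that marks excitatory forebrain neurons, showed no called difference between subregions. Its means were 8.85 in CA1, 8.85 in CA3 and 9.01 in DG, with standard deviations within groups of 0.63, 0.21 and 0.45. The pairwise differences ran from -0.16 to 0, each with a standard error of 0.18.

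Camk4 (probe ILMN_1349983) averaged 6.33 in CA1, 6.85 in CA3 and 6.62 in DG. CA1 minus CA3 was -0.53 ± 0.11 (limma adjusted p = 0.000653) and CA1 minus DG was -0.29 ± 0.11 (limma adjusted p = 0.0386). The second was -0.19 without CA1 Adult replicate 4 and was then not called (limma adjusted p = 0.0528), 1 of 11 such losses in 36 cases of 1 array left out. CA3 minus DG was 0.24 ± 0.11 and was not called (limma adjusted p = 0.103). It was called without that array (limma adjusted p = 0.0139), 1 of 2 such gains in the 36 cases.

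The calcineurin catalytic subunits did not share an order. Ppp3ca (probe ILMN_1372414), the alpha subunit, averaged 14.26 in CA1, 14.13 in CA3 and 14.44 in DG. CA3 minus DG was -0.32 ± 0.07 (limma adjusted p = 0.000321) and CA1 minus DG was -0.18 ± 0.07 (limma adjusted p = 0.0328), the second being -0.06 and not called from the processed values (limma adjusted p = 0.523). CA1 minus CA3 was 0.14 ± 0.07 (limma adjusted p = 0.122), and 0.18 without CA1 Adult replicate 4 (limma adjusted p = 0.0121). Ppp3cb (probe ILMN_1351926), the beta subunit, averaged 10.89 in CA1, 11.58 in CA3 and 11.47 in DG. Its CA1 mean held Adult replicate 4 at 7.23, while the other 11 CA1 arrays had 10.52 or more. Without that array the F test called it (limma adjusted p = 0.0114), CA1 minus CA3 was -0.34 (limma adjusted p = 0.0069) and CA1 minus DG was -0.23 (limma adjusted p = 0.0561).

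**Figure D2:**
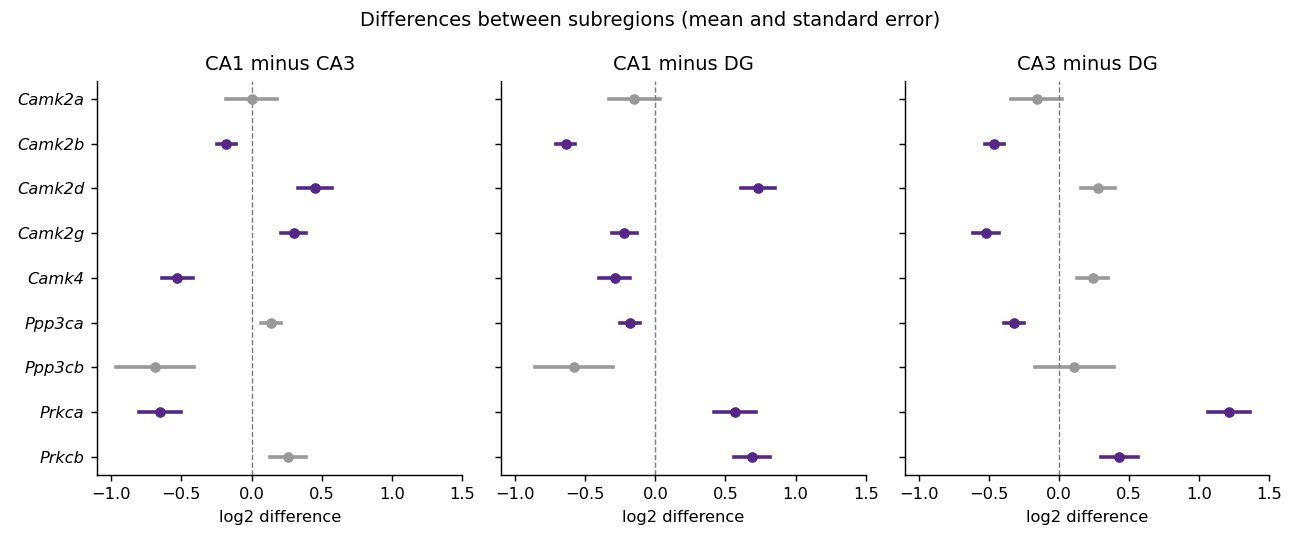
Log2 difference between subregions for each gene (x axis; points are fitted differences, bars 1 standard error, 12 arrays per subregion). Purple marks differences called at an adjusted p under 0.05 and grey the others. CA3 minus DG for Prkca, at 1.21, is the largest, and Camk2b and Camk2g are below 0 against DG where Camk2d and Prkcb are above 0.

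The pairwise tests called 5 of 9 genes for CA1 minus CA3, against 29.6% of all probes, 7 of 9 for CA1 minus DG, against 44.0%, and 5 of 9 for CA3 minus DG, against 39.5%. Markers of other cells differed between the same pieces. All 7 tested oligodendrocyte markers were called higher in CA1 than in DG and in CA3 than in DG, with median log2 differences of 1.16 and 1.44. Their mean level per array was 9.03 to 11.09 in CA1, 10.42 to 11.01 in CA3 and 8.93 to 9.74 in DG. The CA1 low was on an Adult array, in a group with a median of 10.72, and the aged CA1 arrays began at 10.36. Of 8 pan-neuronal markers, 6 were called lower in CA1 than in CA3 (median -0.57). Of 4 tested excitatory neuron markers, 3 were called higher and 1 lower in CA1 than in DG (median 1.25). Against DG, CA3 had 3 called higher and 0 lower (median 1.2). The part of these markers in the differences of the 9 genes was not tested. In whole hippocampus, which was on other slides, the means were 9.12 for Camk2a, 12.64 for Camk2b, 6.6 for Camk2d, 11.68 for Camk2g, 6.44 for Camk4, 14.02 for Ppp3ca, 11.35 for Ppp3cb, 6.97 for Prkca and 13.05 for Prkcb.

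With age, no gene was called in any region. Aged against adult compared the mean of the Aged Impaired and Aged Intact groups with the Adult group, and limma called 0 of 9 genes in CA1, CA3, DG and whole hippocampus. Over all probes the called share was 0.0501% in CA1, 0.912% in CA3, 0.0296% in DG and 0.318% in whole hippocampus. At an unadjusted p under 0.05 there were 0 genes in CA1, 1 in CA3 (Camk2d), 0 in DG and 1 in whole hippocampus (Camk4), against 6.07%, 13.8%, 2.42% and 5.66% of all probes. The median difference of the 9 genes was -0.04 in CA1, 0 in CA3, 0.02 in DG and -0.05 in whole hippocampus, beside 0.06, 0, 0.02 and -0.01 for all probes.

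Each aged group was also set against the Adult group alone. Aged Impaired against Adult called 0 of 9 genes by limma in each region, where 0.0301% of all probes were called in CA1, 0.172% in CA3, 0.0296% in DG and 0.26% in whole hippocampus. No gene had an unadjusted p under 0.05 in this comparison, against 2.16%, 7.98%, 1.95% and 4.28% of all probes in the same order of regions. Aged Intact against Adult also called 0 of 9 genes in each region, where 0.0501%, 1.09%, 0.0296% and 0.241% of all probes were called. At an unadjusted p under 0.05 there were 2 genes in CA3, Camk2d and Camk4, and none in the other regions, against 4.97%, 16.1%, 3.14% and 7.95% of all probes. These unadjusted counts depend on the arrays that stood apart. Without CA1 Adult replicate 4, Camk2a in CA1 passed in aged against adult and in Aged Intact against Adult, where it was -0.28 ± 0.41 with that array and -0.72 ± 0.26 without it (limma adjusted p = 0.131). Without Aged Intact replicates 2 and 7, Camk4 in whole hippocampus passed in Aged Intact against Adult, at -0.18 ± 0.09 with them and -0.24 ± 0.09 without them (limma adjusted p = 0.478). The shares of all probes above are from the fits with these arrays. The shares in the fits without them were not counted, so those passes stand without a background share. All these comparisons share the Adult arrays.

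The intervals of aged minus adult say how large a change with age these data allow. In CA3 the 95% intervals of all 9 genes lay within a 1.5-fold change in either direction. In DG they did so for 8 genes, all but Camk2a. Whole hippocampus also had 8, all but Camk2a, and had 9 without Aged Intact replicates 2 and 7. In CA1 only 3 genes, Camk2b, Camk2g and Ppp3ca, had such intervals, and 8 had them without Adult replicate 4. Camk2d was detected on only 8 of 12 CA3 arrays and 4 of 12 DG arrays. Its intervals there bound a signal near background, and may not bound the change in its RNA.

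**Figure D3:**
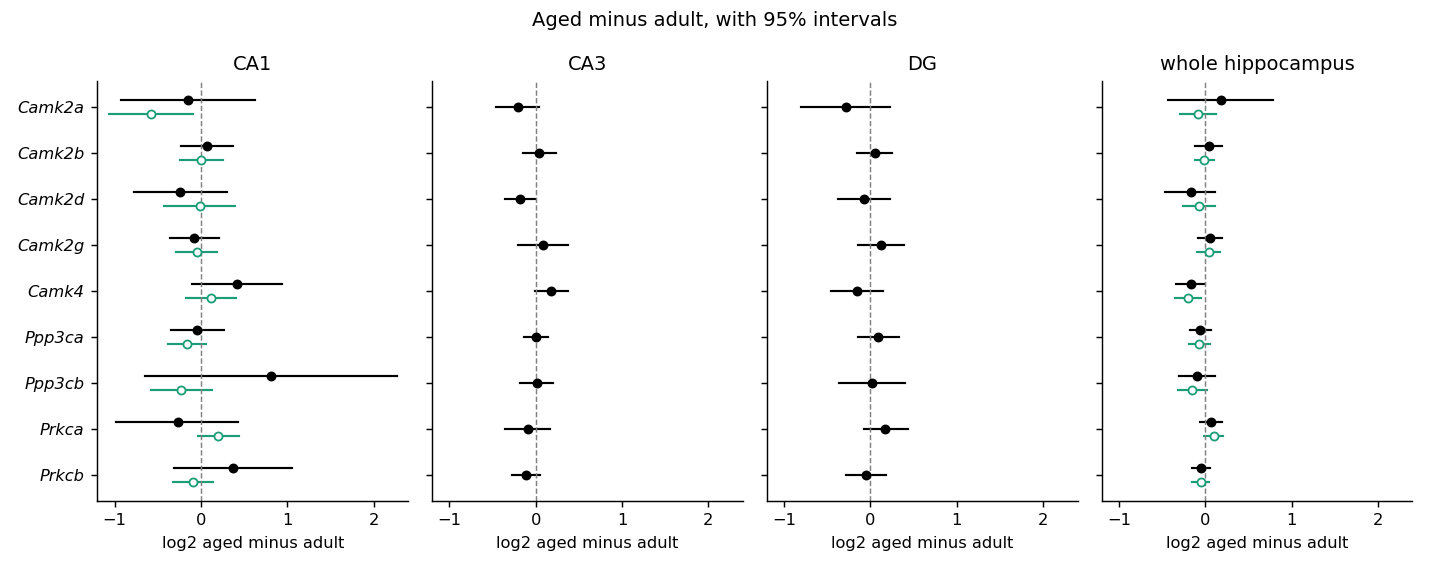
Log2 difference of aged minus adult (x axis) for each gene in the 4 regions, with 95% intervals from limma. Black filled points use all arrays. Green open points leave out Adult replicate 4 in CA1, and Aged Intact replicates 2 and 7 in whole hippocampus. The Ppp3cb difference in CA1, 0.81 with all arrays, is -0.23 without that array.

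CA3 held the lowest unadjusted p-values. Camk2d had 5.95, 5.98, 5.76 and 5.69 in Aged Impaired CA3 and 5.52, 5.7, 5.72 and 5.8 in Aged Intact CA3, against 6.05, 5.92, 6.01 and 5.81 in Adult CA3. The Aged Intact arrays all lay below the Adult arrays, and the Aged Impaired arrays overlapped both. Of all probes, 16.1% had an unadjusted p under 0.05 by limma in Aged Intact against Adult CA3. The share of all probes without overlap there was not counted. Camk2d was detected on 3 of 4 Aged Impaired, 1 of 4 Aged Intact and 4 of 4 Adult CA3 arrays. These levels are at the edge of detection. Aged minus adult was -0.18 ± 0.08 (limma adjusted p = 0.333). Aged Intact minus Adult was -0.26 ± 0.09 (limma adjusted p = 0.203), the lowest adjusted p of the 9 genes in the 16 contrasts.

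Camk4 in CA3 had 6.76, 6.95, 6.54 and 7.01 in Aged Impaired arrays and 7.07, 6.93, 6.93 and 7.12 in Aged Intact arrays, against 6.73, 6.77, 6.57 and 6.86 in Adult arrays. Again the Aged Intact arrays stood clear of the Adult ones, here above them, and the share of all probes that did so was not counted. Aged Intact minus Adult was 0.28 ± 0.1 (limma adjusted p = 0.223) and Aged Impaired minus Adult was 0.08 ± 0.1 (limma adjusted p = 0.9). Neither was called.

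The other 7 genes in CA3 had aged minus adult differences between -0.21 and 0.09. Camk2a was the lowest, with means of 8.76 ± 0.21 in Aged Impaired, 8.8 ± 0.23 in Aged Intact and 8.99 ± 0.19 in Adult arrays (SD, n = 4 each; limma adjusted p = 0.441). Prkca averaged 7.88 ± 0.15 in Aged Impaired, 7.93 ± 0.33 in Aged Intact and 8 ± 0.09 in Adult arrays (limma adjusted p = 0.752). Prkcb averaged 12.67 ± 0.13, 12.68 ± 0.14 and 12.79 ± 0.06 in the same order of groups (limma adjusted p = 0.529). For Ppp3ca the fitted difference was 0 ± 0.06, and for Ppp3cb 0.01 ± 0.09.

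In DG the differences of aged minus adult ran from -0.28 to 0.17. Camk2a was again the lowest. It had 8.65, 8.69, 8.88 and 8.95 in Aged Impaired DG and 9.69, 9, 8.88 and 8.58 in Aged Intact DG, against 9.47, 8.69, 9.93 and 8.7 in Adult DG. The Adult arrays formed a high and a low pair, and the groups overlapped. Aged minus adult was -0.28 ± 0.24 (limma adjusted p = 1). Prkca was at the upper end, at 0.17 ± 0.12 (limma adjusted p = 1), with 7 of 8 aged arrays above the Adult mean.

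CA1 turned on 1 array. Ppp3cb had 11, 11.25, 11.25 and 11.65 in Aged Impaired CA1 and 11.25, 11.26, 11.1 and 10.52 in Aged Intact CA1, against 11.39, 11.46, 11.31 and 7.23 in Adult CA1. The low value is Adult replicate 4, on which the probe was not detected, and the other arrays overlap. Aged minus adult was 0.81 ± 0.67 with it (limma adjusted p = 0.635) and -0.23 ± 0.16 without it (limma adjusted p = 0.423). Prkcb depended on the same array: aged minus adult was 0.37 ± 0.31 with it and -0.09 ± 0.11 without it (limma adjusted p = 0.634).

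Prkca depended on that array in the opposite direction. It had 7.03, 7.17, 7.36 and 7.36 in Aged Impaired CA1 and 7.09, 7.28, 7.32 and 6.98 in Aged Intact CA1, against 6.86, 7.08, 7.05 and 8.91 in Adult CA1. Aged minus adult was -0.27 ± 0.32 with Adult replicate 4 and 0.2 ± 0.11 without it (limma adjusted p = 0.299). Camk2a was -0.15 ± 0.36 with that array, on which it was not detected, and -0.58 ± 0.23 without it (limma adjusted p = 0.198). Camk4 was 0.42 ± 0.24 with it, with all 8 aged arrays above the Adult mean, and 0.12 ± 0.13 without it (limma adjusted p = 0.608). It was called in 1 fit over all 60 arrays, which shares 1 spread across regions (limma adjusted p = 0.0413), where 1984 probes were called in CA1.

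In whole hippocampus Camk4 was the gene with an unadjusted p under 0.05. It ran from 6.07 to 6.7 with a median of 6.39 in Aged Impaired arrays (n = 9) and from 6.01 to 6.87 with a median of 6.33 in Aged Intact arrays (n = 9), against 6.28 to 6.67 with a median of 6.63 in Adult arrays (n = 6). The groups overlapped, with 15 of 18 aged arrays below the Adult mean. Aged minus adult was -0.17 ± 0.08 (limma adjusted p = 0.882). Within the slides it was -0.28 ± 0.11 on the first and -0.05 ± 0.11 on the second. Without Aged Intact replicates 2 and 7 it was -0.2 ± 0.07 (limma adjusted p = 0.378). In CA3 the same probe had an aged minus adult difference of 0.18 ± 0.09, which was not called either (limma adjusted p = 0.389).

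The 2 whole-hippocampus arrays that stood apart did so most for Camk2a. It had 11.36 on Aged Intact replicate 2 and 11.13 on Aged Intact replicate 7, against 8.58 to 9.32 on the other 22 arrays of all 3 groups. The deposited signals, before any normalization here, were 959.3 and 549.5 on these arrays, against 206.9 to 458.2 on the others. Camk2d lay below all others on both, at 5.73 and 5.83 against 6.31 to 7.28. Ppp3cb lay above all others on both, at 11.79 and 11.78 against 10.64 to 11.57. The normalized levels of the other 6 genes were not outside the range of the other arrays on both, though the deposited signals of Camk2g, Ppp3ca and Prkcb were below it on both. Aged Intact minus Adult for Camk2a was 0.42 ± 0.33 with the 2 arrays and -0.1 ± 0.12 without them (limma adjusted p = 0.994).

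**Figure D4:**
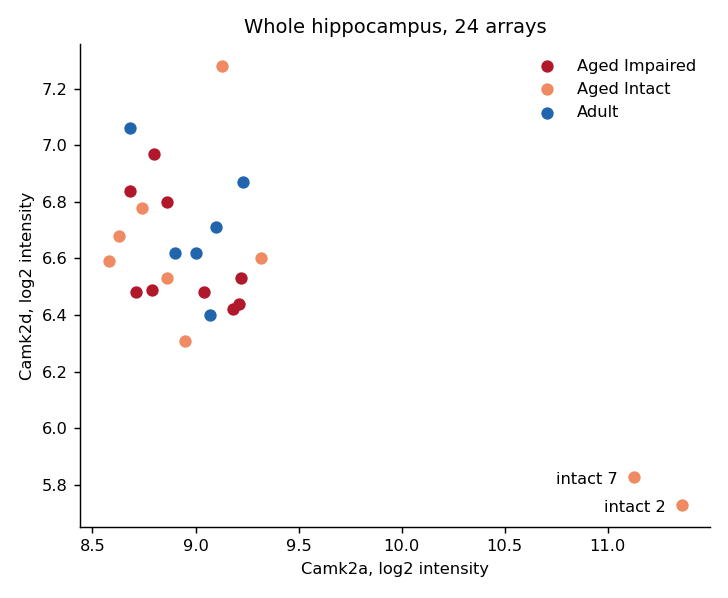
Log2 intensity of Camk2d (y axis) against Camk2a (x axis) on the 24 whole-hippocampus arrays, by group. Aged Intact replicates 2 and 7 lie alone at high Camk2a (11.36 and 11.13) and low Camk2d (5.73 and 5.83), and the other 22 arrays of all groups form 1 cloud.

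Aged Impaired against Aged Intact, the comparison of rats of 1 age that differ in the labelled outcome, called none of the 9 genes in any region by limma. No probe on the arrays was called there either (0.0% in each region), and no member had an unadjusted p under 0.05, against 0.331% of all probes in CA1, 5.06% in CA3, 1.93% in DG and 5.79% in whole hippocampus. The largest difference was Camk2a in whole hippocampus, at -0.48 ± 0.3 (limma adjusted p = 0.639), and it was 0.04 ± 0.11 without Aged Intact replicates 2 and 7. Without those arrays all 9 whole-hippocampus differences lay between -0.07 and 0.08, and their 95% intervals between -0.24 and 0.27.

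**Figure D5:**
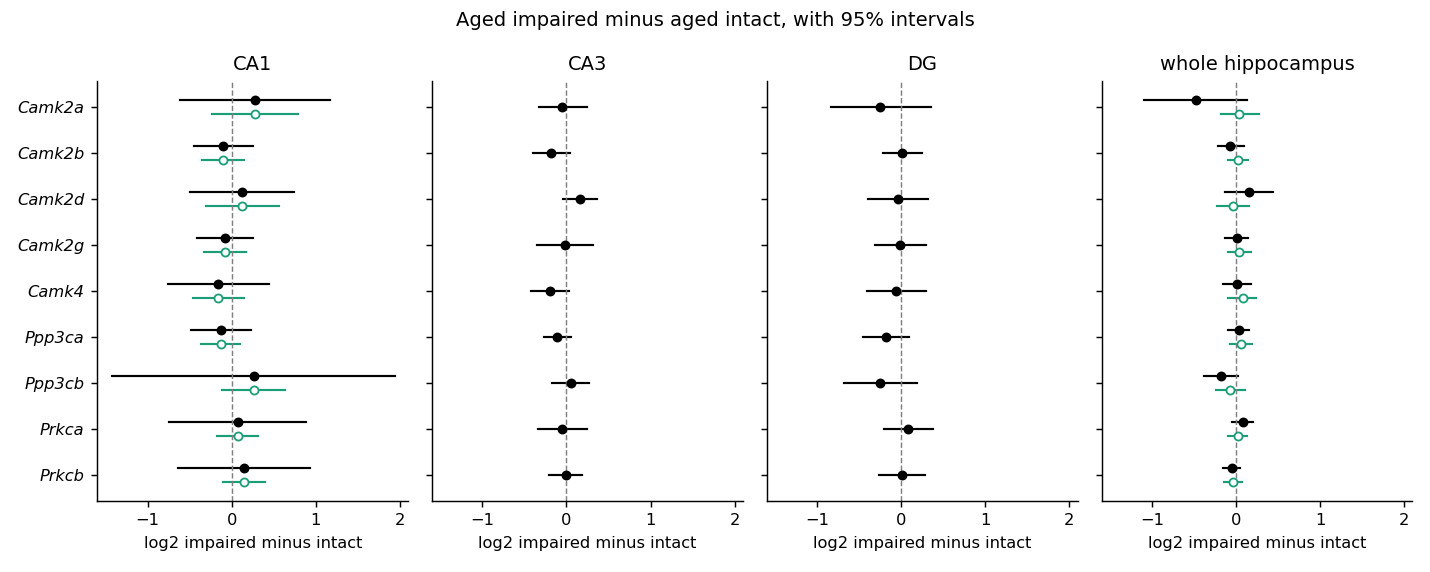
Log2 difference of Aged Impaired minus Aged Intact (x axis) for each gene in the 4 regions, with 95% intervals from limma. Black filled points use all arrays. Green open points leave out Adult replicate 4 in CA1, which narrows the intervals through the shared spread, and Aged Intact replicates 2 and 7 in whole hippocampus, where Camk2a is -0.48 with them and 0.04 without.

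In CA3, 7 of 9 genes had lower means in Aged Impaired than in Aged Intact arrays and 2 had higher ones, with a median of -0.05 beside 0 for all probes. Camk4 was -0.2 ± 0.1 (limma adjusted p = 0.961), with all 4 Aged Impaired arrays below the Aged Intact mean. Camk2b averaged 12.82 ± 0.11 in Aged Impaired and 13 ± 0.21 in Aged Intact arrays (SD, n = 4 each; limma adjusted p = 0.969). Camk2d was 0.16 ± 0.09, with all 4 Aged Impaired arrays above the Aged Intact mean (limma adjusted p = 0.969). In DG the differences ran from -0.25 for Camk2a and Ppp3cb to 0.08 for Prkca, and in CA1 from -0.16 for Camk4 to 0.28 for Camk2a.

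Whether an effect differed between CA1, CA3 and DG was tested in the fit of 36 arrays. The F test called 0 of 9 genes for aged against adult, beside 0.00915% of all probes, and 0 of 9 for impaired against intact, beside 0.0%. At an unadjusted p under 0.05 both counts were also 0, where 6.9% and 0.988% of all probes passed. Camk4 had the lowest p of the 9 genes for age (unadjusted p = 0.0729, adjusted p = 0.72), with aged minus adult at 0.42 in CA1, 0.18 in CA3 and -0.16 in DG. Without CA1 Adult replicate 4 the CA1 difference was 0.12 and the adjusted p of the F test was 0.709.

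The rest of the pathway was read from 6 lists of 116 genes, of which 101 had a probe and 86 to 89 were tested in a region. In aged against adult 1 probe was called, Prkcd in CA3, and none in CA1, DG or whole hippocampus. None was called in impaired against intact. The medians of aged minus adult over the tested probes of all lists were 0.01 in CA1, -0.03 in CA3, 0.01 in DG and -0.01 in whole hippocampus, beside 0.06, 0, 0.02 and -0.01 for all probes. At an unadjusted p under 0.05 there were 8 of 87 in CA1, 14 of 87 in CA3, 1 of 89 in DG and 5 of 86 in whole hippocampus, where 6.07%, 13.8%, 2.42% and 5.66% of all probes passed. The 1 called probe of 87 in CA3 stands beside 0.912% of all probes.

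Prkcd encodes a protein kinase C isoform that needs diacylglycerol but not calcium. It had 6.43, 6.36, 6.4 and 6.48 in Aged Impaired CA3 and 6.43, 6.77, 6.42 and 6.65 in Aged Intact CA3, against 5.9, 5.81, 6.25 and 6.06 in Adult CA3. Every aged array was above every Adult array, which adds no separate evidence, since Prkcd is named because it was called in CA3. It rose by 0.49 ± 0.09 in aged against adult CA3, a fold of 1.4 (limma adjusted p = 0.0186), and by 0.56 ± 0.1 in Aged Intact against Adult (limma adjusted p = 0.0168). The call was lost on leaving out Adult replicate 1 (0.45, limma adjusted p = 0.0727), replicate 2 (0.42, limma adjusted p = 0.0804) or replicate 4 (0.51, limma adjusted p = 0.0615), and in 1 fit over all 60 arrays (limma adjusted p = 1). Aged Impaired against Adult was 0.41 ± 0.1 and was not called (limma adjusted p = 0.215).

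In CA1, aged minus adult for Prkcd was 0.93 ± 0.3 (limma adjusted p = 0.63), and 0.55 ± 0.18 without Adult replicate 4 (limma adjusted p = 0.178). In DG it was 0.02 ± 0.13 and in whole hippocampus 0.05 ± 0.1. The difference of the age effect between CA1, CA3 and DG was not called (adjusted p of the F test = 0.668). Microglial markers also rose with age in CA3, where 3 of 6 tested were called higher. The mean of the 7 markers with a probe was 8.15 to 8.22 in Aged Impaired, 8.29 to 8.38 in Aged Intact and 7.87 to 7.96 in Adult arrays. In CA1 the medians of this mean were 8.37, 8.46 and 7.94 in the same order of groups. The CA1 ranges were 8.33 to 8.5, 8.39 to 8.61 and 7.4 to 8.28. In DG the medians were 7.9, 7.7 and 7.56, with overlapping ranges. In whole hippocampus, where Prkcd differed little, they were 7.96, 7.93 and 7.75. The whole-hippocampus ranges were 7.87 to 8.95 in Aged Impaired, 7.69 to 8.23 in Aged Intact and 7.68 to 7.82 in Adult arrays. The part of these markers in the Prkcd difference was not tested.

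Calm2, Calm3, Ppp3r1, Camk2n1 and Nrgn, partners of the 9 genes, were not called with age or between aged groups in any region by limma within regions. Calm2 and Calm3, which encode calmodulin, differed between aged and adult by -0.06 and 0.11 in CA3, by 0.08 and 0.02 in DG and by -0.03 and 0.01 in whole hippocampus. In CA1 Calm2 was 0.17 ± 0.21 with Adult replicate 4 and -0.12 ± 0.09 without it, and Calm3 was 0.24 ± 0.16 with it and 0.1 ± 0.11 without it. In 1 fit over all 60 arrays, Ppp3r1 was called in CA1 (limma adjusted p = 0.0145). That fit kept CA1 Adult replicate 4 and called 1984 probes for aged against adult in CA1, against 5 with CA1 fitted alone. For aged minus adult, Ppp3r1, the regulatory subunit of calcineurin, was 0.18 ± 0.07 in CA3 (limma adjusted p = 0.25), with 7 of 8 aged arrays above the Adult mean, and 0.76 ± 0.4 in CA1, or 0.16 ± 0.13 without Adult replicate 4. Camk2n1, an inhibitor of CaMKII, was -0.38 ± 0.17 in CA1 (limma adjusted p = 0.63), with all 8 aged arrays below the Adult mean. Neurogranin (Nrgn), which holds calmodulin at low calcium, lay between -0.01 and 0.01 for aged minus adult in all 4 regions. In DG its Aged Impaired minus Aged Intact difference was 0.2 ± 0.14 (limma adjusted p = 0.894).

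Between subregions the F test called some of these partners, as it did 56.9% of all probes. Camk2n1 averaged 12.78 in CA1, 12.73 in CA3 and 13.25 in DG (adjusted p of the F test = 0.000232). Like Camk2b it was highest in DG, but its lowest mean was in CA3 and that of Camk2b in CA1. Calm3 averaged 12.38, 12.55 and 12.21 (adjusted p = 0.00431) and Nrgn 14.19, 14.44 and 14.26 (adjusted p = 0.00623) in CA1, CA3 and DG. Calm2 (adjusted p = 0.18) and Ppp3r1 (adjusted p = 0.466) were not called. Of the 31 tested genes for calcium channels, stores, pumps and buffers, 7 were called higher and 18 lower in CA1 than in DG, with a median of -0.39 beside -0.03 for all probes, of which 44.0% were called, 2190 higher and 2619 lower. The 17 tested genes of other protein kinase C isoforms, activators and substrates had 4 higher and 4 lower, near that share, with a median of 0.13.

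Across the 12 medians of region and group, some probes followed the 9 genes closely, out of 8159 searched. These points share slides within a region, and the correlations are descriptions. Prkca was most like Cyb5r1 (Pearson r = 0.99) and Adcy3 (0.978), over a range of its medians of 1.4. Prkcb was most like Man1a1 (0.992) and Ccn3 (0.982), Camk2d most like Cdh7 (0.99) and Rgs4 (0.988), and Camk2b most like Zmynd8 (0.981) and Clip4 (0.973). Camk2g followed Pan3 (0.977) and Uimc1 (0.971), Ppp3cb Nell2 (0.969) and Itga4 (0.954), Ppp3ca Ubn2 (0.944) and Ptk2 (0.938), and Camk4 Nsmce3 (0.922) and Spock2 (0.912). Camk2a, whose medians spanned 0.38, was most like Cnot7 (0.927) and Dock4 (0.862).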

How the data were processed

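Total RNA from 60 hippocampal samples was hybridized to Illumina bead arrays, per the labels. The authors deposited a non-normalized table with a signal intensity and a detection p-value per probe and array, and a second table of processed intensity values. The processed values were linear in the non-normalized ones on each array (largest residual 0.021) and ran below 0 on all 60 arrays. The software and genome build are not given in the sources used here.

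Of the deposited table, 22523 probes were used, after 3174 lines without a probe were dropped. Intensities were corrected and normalized with neqc of limma 3.58.1 in R 4.3.3 (negative controls inferred from the detection p, offset 16, quantile over all arrays, log2). A probe entered a region's test if its detection p was under 0.01 on 4 or more arrays (6 or more for whole hippocampus). Testing was per region, with lmFit and eBayes on the 3 groups, with the slide as a term in whole hippocampus. CA1, CA3 and DG were also fitted together (36 arrays). Benjamini-Hochberg adjustment ran over all probes of a contrast, with a threshold of 0.05. Files were read with Python 3.11.15 and pandas 2.3.3, and the scripts were tested on simulated data.

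Members and gene lists were chosen with earlier results of these data known. The genes named are the 9 members, fixed partners (Calm2, Calm3, Camk2n1, Nrgn, Ppp3r1; others are not reported here), pathway genes that were called, and the 2 probes most like each member. Alternatives were other background corrections, filters, normalizations and designs, and leaving out each array in turn.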

Additional observations from a re-analysis of the deposited data

Results flagged for a closer look

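Within 108 sets of 1 gene, region and group, 10 held an array whose gap to the nearest other array exceeded Dixon's critical value; chance gives about 5% of sets. Of these, 4 were on CA1 Adult replicate 4, where 22.22% of probes were detected: Camk4 at 5.14 (others 6.25 to 6.41), Ppp3cb at 7.23 (others 11.31 to 11.46), Prkca at 8.91 (others 6.86 to 7.08) and Prkcb at 11.36 (others 13.03 to 13.34). On that array Prkca was the one of the 4 that was high. Camk2b stood apart low in CA3 on Aged Impaired replicate 4 at 12.67 (others 12.86 to 12.89), and high in whole hippocampus on Aged Intact replicate 2 at 13.19 (others 12.42 to 12.81). Ppp3ca stood apart in DG on Aged Impaired replicate 1 at 14.14 (others 14.44 to 14.47). Ppp3cb did so in CA3 on Aged Intact replicate 1 at 11.71 (others 11.5 to 11.52) and on Adult replicate 1 at 11.3 (others 11.63 to 11.69), and in whole hippocampus on Aged Impaired replicate 9 at 10.64 (others 11.17 to 11.41).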

How the results depend on the processing

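Of 3608 recomputed differences of the 9 genes, 3358 kept their sign and 1 passed the threshold. That was Camk4 in aged against adult CA1 in 1 fit over all 60 arrays, which raised the count of called genes there to 1. In every other alternative run, the count in the 16 contrasts was 0, and it was 0 to 0 on leaving out 1 array. Counts over all probes moved more: for aged against adult they ran from 1 to 1984 in CA1, 12 to 119 in CA3, 2 to 8 in DG and 1 to 91 in whole hippocampus. Between CA1, CA3 and DG the count of called genes was 7 to 8 on leaving out 1 array and 5 to 8 in the other alternatives, beside 2747 to 8964 of all probes. The number of probes tested changed between these alternatives. One of them kept only probes detected on all 36 arrays, so Camk2a, Camk2d, Camk4 and Ppp3cb were not tested there. Leaving out Aged Intact replicates 2 and 7 was chosen after seeing the data and gave 0 called genes in the 4 whole-hippocampus contrasts. Replicate numbers were not taken to pair the samples, since the labels do not say which samples came from the same rat. Deviations of same-numbered samples of different groups correlated above 0.1 in 3 of 12 pairs in CA1 and 6 of 12 in CA3. It was 3 of 12 in DG and 6 of 21 in whole hippocampus. Different groups hold different rats, so these counts cannot show whether subregions share a rat. Between subregions of 1 age group, 21 of 36 same-numbered pairs correlated above 0.1 (median 0.117). Among pairs of unlike number it was fewer, 37 of 108 (median -0.015). With the replicate number as a block, the count was 0 in each contrast and 7 between subregions. That block joined same-numbered samples of all 3 groups, so it could not test whether subregions came from the same rat. Whether same-numbered subregion samples share a rat is not known, and the tests over 36 arrays treated them as independent. Signal near background limits Camk2d, which was detected on 45 of 60 arrays.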
